A study of Mus musculus with 8 samples.

Results

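The genes examined here are 41 leukocyte genes measured in the hearts of newborn mice. They are defined by their symbols, and they fall into 8 pan-leukocyte genes, 16 resident macrophage genes, 7 monocyte and chemokine genes, 3 neutrophil genes and 7 lymphocyte genes. All 41 were found among the 80155 loci of the deposited tables, of which 39614 carry a gene symbol. Hearts were taken from male mice of the outbred stock Hsd:ICR(CD-1), 4 at postnatal day 1 (P1) and 4 at postnatal day 7 (P7). Neither stage was treated or genetically altered. The atrial appendages had been removed, and the RNA came from the rest of the whole heart, with 1 library per mouse. The comparison asks how the transcripts of the heart differ between P1, when the mouse heart can still regenerate, and P7, when it no longer does.

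Leukocytes are a small part of the heart, and most of them are macrophages. Resident macrophages depend on signals through the receptor encoded by *Csf1r*, clear dying cells and debris, and make complement C1q. They are seeded before birth, and monocytes that carry the chemokine receptor encoded by *Ccr2* enter from the blood later. Neutrophils, T cells and B cells in an uninjured heart are few and may be within its vessels. RNA from a whole heart mixes all of these with cardiomyocytes, endothelial cells and fibroblasts, so that fewer cells of a type and less RNA per cell cannot be told apart.

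Expression is given as FPKM, the number of sequenced fragments per kilobase of transcript with scaling to the depth of the library. Levels can thus be compared between genes, while comparisons between hearts depend in part on the scaling, as described below. The number of counted fragments behind 1 FPKM in a 1 kb transcript, estimated from the steps between low values, was 13.2 to 20.8 per heart. Of all loci, 17960 with a gene symbol reached 1 FPKM in at least 1 heart and were tested. Of those, 7.74% passed the test as higher in P7 and 0.401% as lower, and 67.6% had a positive log2 fold change. With the loci that carry no symbol included, 3.45% passed as higher and 0.371% as lower. Cardiomyocyte genes summed to between 18040 and 35220 FPKM in every heart, as the labelled tissue would have. The third P1 heart stood apart by the number of loci at 1 FPKM or more (28662, the others 20269 to 22292).

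Among the 41 leukocyte genes 1, *Lyz2*, rose from P1 to P7, and none fell (limma on log2(FPKM + 1), with p adjusted after Benjamini and Hochberg below 0.05 and means at least 1.5 times apart). The test covered 30 of the 41. The remaining 11 (*Timd4*, *Fcgr1*, *Ccr2*, *Lyz1*, *Csf3r*, *Cd3e*, *Cd4*, *Cd8a*, *Cd79a*, *Cd79b* and *Ms4a1*) stayed under 1 FPKM in every heart. Of the 30, 29 reached 1 FPKM at both stages and *Cd14* did so at P7 alone. An unadjusted p under 0.05 was found for 11 of the 30 with the higher level at P7 and for 0 with the higher level at P1, against 25.6% and 4.1% of all tested loci with a symbol. Every P7 heart lay above every P1 heart for 7 of the 30, where 17.3% of all tested loci with a symbol did so, and no gene lay in the opposite order, where 2.69% did. The log2 fold change was positive for 24 and negative for 6, with a median of 0.33, beside a median of 0.19 over all tested loci with a symbol.

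The order of the levels was led by a few genes. At P1 the highest mean levels were those of *Pf4* (23.1 FPKM ± 7.56, SD, n = 4), *S100a9* (15.1 ± 5.93), *Lyz2* (13.6 ± 1.49) and *S100a8* (11.1 ± 3.20), which do not differ from their neighbours in this order beyond their spread. At P7 *Lyz2* stood first at 33.3 ± 5.59 FPKM, above *Pf4* at 19.9 ± 4.93 with no overlap between the hearts, and *Tyrobp* (16.0 ± 2.62) and *C1qa* (15.3 ± 3.32) followed within their spread. The lowest levels at either stage were those of the lymphocyte genes other than *Cd3g* and of *Timd4*, *Fcgr1*, *Lyz1* and *Csf3r*.

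**Figure D1:**
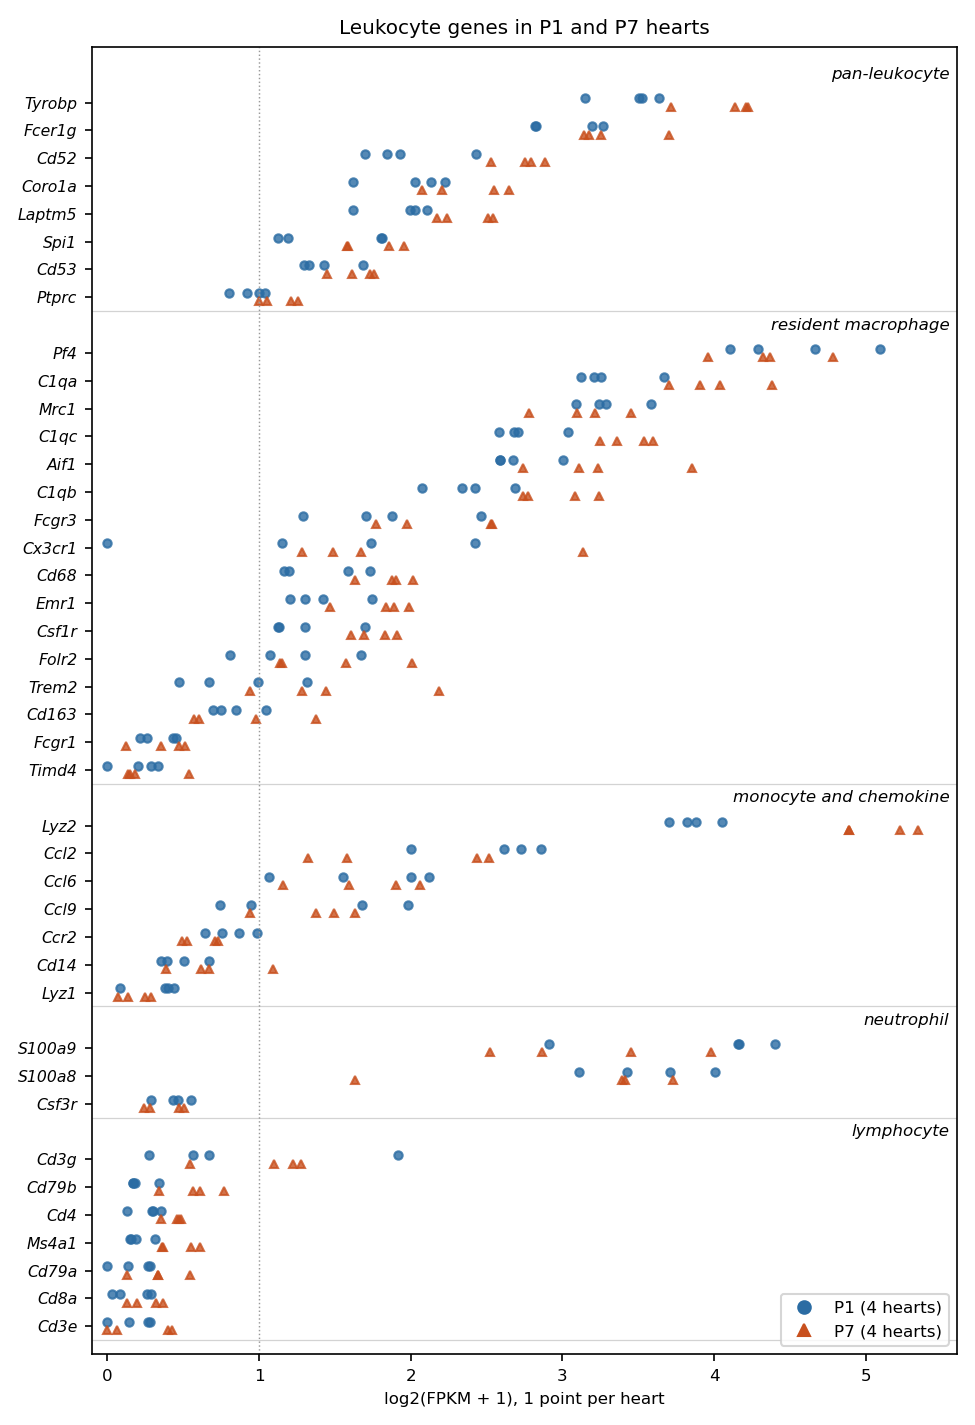
Level of each of the 41 genes in each heart as log2(FPKM + 1) (horizontal axis), grouped by class and ordered within a class by the mean over all hearts; circles are the 4 P1 hearts, triangles the 4 P7 hearts, and the dotted line marks 1 FPKM. *Lyz2*, at 12.0 to 15.6 FPKM in P1 and 28.6 to 39.6 FPKM in P7, has a clear gap between the stages, and the lymphocyte genes lie mostly to the left of the line.

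*Lyz2* encodes the lysozyme of macrophages, monocytes and neutrophils, an enzyme that cuts bacterial cell walls. Its level was 13.7, 13.1, 12.0 and 15.6 FPKM in the P1 hearts and 36.4, 28.6, 39.6 and 28.6 FPKM in the P7 hearts. The lowest P7 heart lay well above the highest P1 heart. The ratio of the means was 2.45, and the log2 fold change of 1.22 had a standard error of 0.185 (limma, adjusted p = 0.00789, higher in 4 of 4 P7 hearts). The call held in every setting tried, with log2 fold changes from 0.96 to 1.32, and without the third P1 heart the value was 1.17 (adjusted p = 0.0254). Between 238 and 786 fragments per heart lay behind these values. *Lyz2* is transcribed from the minus strand of chromosome 10 (GRCm38, chr10:117277334-117282274), next to its paralog *Lyz1* (chr10:117287796-117292868).

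*Lyz1*, the lysozyme of Paneth cells in the gut, was at 0.357, 0.0598, 0.301 and 0.320 FPKM at P1 and at 0.186, 0.0987, 0.223 and 0.0508 FPKM at P7. The stages overlapped, and the values stand for 1 to 9 fragments per heart, so that no difference was detectable at this depth. Because the paralogs are much alike, fragments could in principle be assigned to either one. Of the 1164 windows of 100 bases in the longest coding transcript of *Lyz1* in GENCODE M21, 24 (2.06%) also occur in transcripts of *Lyz2*, and the longest identical run is 118 bases. In most of their length the transcripts therefore differ within 1 read.

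The stretches just before the start sites of *Lyz2* and *Lyz1* are shown to let the neighbouring genes with such unlike levels be compared. Each run holds the 250 bases before the start site, 5′ to 3′ on the minus strand (RefSeq, GRCm38.p6), at chr10:117282273-117282522 for *Lyz2* and chr10:117292869-117293118 for *Lyz1*. Capitals mark each match to GAGGAA, a core recognised by PU.1, or to TTNNGNAA, a core recognised by C/EBP factors, on either strand.
Lyz2: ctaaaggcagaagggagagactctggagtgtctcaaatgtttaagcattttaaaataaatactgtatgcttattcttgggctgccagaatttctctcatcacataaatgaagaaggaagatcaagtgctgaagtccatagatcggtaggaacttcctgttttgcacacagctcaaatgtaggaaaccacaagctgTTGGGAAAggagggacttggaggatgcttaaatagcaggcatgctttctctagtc
Lyz1: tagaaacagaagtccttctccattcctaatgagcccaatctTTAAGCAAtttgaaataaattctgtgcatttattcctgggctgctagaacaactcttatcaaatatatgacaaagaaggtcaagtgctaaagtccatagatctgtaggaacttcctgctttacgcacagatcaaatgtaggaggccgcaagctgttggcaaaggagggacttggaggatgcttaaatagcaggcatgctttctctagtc
Without gaps, the windows carry the same base at 152 of 250 positions, and the last 50 bases before the start site are the longest identical run. The last 49 bases of the *Lyz2* window lie inside the gene as GENCODE M21 draws it, with an earlier start than RefSeq. Neither window holds GAGGAA. Each holds 1 match to TTNNGNAA, which starts 55 bases before the start site in *Lyz2* and 209 bases before it in *Lyz1*.

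**Figure D2:**
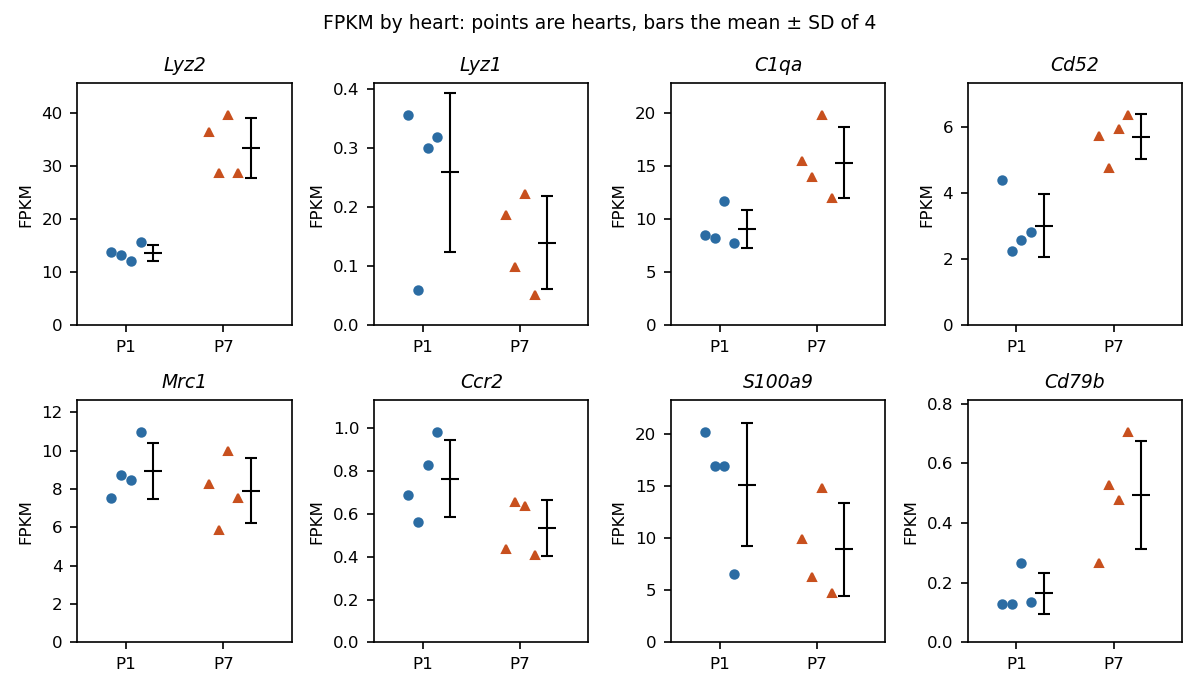
FPKM of 8 leukocyte genes in each P1 heart (circles) and P7 heart (triangles), each panel with its own vertical axis from 0; the bar beside each group is the mean ± SD of 4 hearts. The stages are fully apart for *Lyz2*, *C1qa* and *Cd52*, of which *Lyz2* passed the test across all loci, and overlap in the other 5 panels.

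The pan-leukocyte genes showed small differences. None of the 8 passed the test, and their median log2 fold change was 0.33. All 8 values were positive as deposited and after median-ratio scaling, 6 of 8 after GC correction, and 4 of 8 after both. *Ptprc*, which encodes CD45, the phosphatase on the surface of all leukocytes, was at 0.745, 0.893, 1.00 and 1.05 FPKM at P1 and at 1.39, 1.00, 1.31 and 1.08 FPKM at P7. The stages met at about 1 FPKM (log2 fold change 0.19, SE 0.177, limma adjusted p = 0.536). *Cd52*, a small surface glycoprotein of lymphocytes and myeloid cells, was at 4.40, 2.25, 2.59 and 2.81 FPKM at P1 and at 5.74, 4.76, 5.93 and 6.38 FPKM at P7, without overlap. Its log2 fold change of 0.76 (SE 0.201) came closest to the threshold among the genes that missed it (adjusted p = 0.0566), and without the first P1 heart it passed (adjusted p = 0.0441). The span of the *Cd52* locus also holds exons of *Crybg2*, whose part in these values was not tested. *Tyrobp*, the signalling adaptor also called DAP12, was at 7.85 to 11.4 FPKM at P1 and 12.1 to 17.7 FPKM at P7, again without overlap (log2 fold change 0.62, adjusted p = 0.105).

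*Laptm5*, a lysosomal membrane protein of haematopoietic cells, was also separated by stage, at 2.08 to 3.30 and 3.51 to 4.83 FPKM (log2 fold change 0.43, adjusted p = 0.247). For *Fcer1g*, the common chain of Fc receptors, *Coro1a*, an actin regulator of leukocytes, *Spi1*, which encodes the transcription factor PU.1, and *Cd53*, a tetraspanin, the stages overlapped, with log2 fold changes of 0.29, 0.37, 0.26 and 0.20 and adjusted p from 0.358 to 0.523. Leaving GC content uncorrected mattered for several of them. With the trend of each heart on the GC content of transcripts removed, the log2 fold change of *Spi1*, the gene with the highest GC content of the class (58.9%), became −0.16, and that of *Coro1a* (58.0%) became −0.03, while that of *Ptprc* (39.4%) became 0.47.

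Among the 16 resident macrophage genes 14 were tested and none passed, with a median log2 fold change of 0.44. The value was positive for 12 of the 14 as deposited, 11 after median-ratio scaling, 13 after GC correction and 11 after both. The chains of complement C1q, which starts the classical complement pathway, were the most separated of the class. *C1qa* was at 8.53, 8.26, 11.7 and 7.70 FPKM at P1 and at 15.5, 14.0, 19.9 and 12.0 FPKM at P7. The lowest P7 heart lay just above the highest P1 heart (log2 fold change 0.70, SE 0.204, limma adjusted p = 0.0844). *C1qc* was at 4.99 to 7.20 and 8.49 to 11.1 FPKM (log2 fold change 0.68, adjusted p = 0.0575), and *C1qb* was at 3.20 to 5.44 and 5.69 to 8.44 FPKM (log2 fold change 0.58, adjusted p = 0.144). The genes lie side by side on chromosome 4, and within a heart *C1qa* was 1.32 to 1.79 times as high as *C1qc*. All 3 are GC-rich (57.4% to 59.5%), and after GC correction their log2 fold changes came to 0.26, 0.31 and 0.21 for *C1qa*, *C1qc* and *C1qb*.

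Receptors used to define macrophages were at low levels. *Csf1r*, the receptor for the growth factors CSF1 and IL-34, was at 1.47, 1.19, 1.18 and 2.24 FPKM at P1 and at 2.77, 2.04, 2.55 and 2.23 FPKM at P7. The span of the *Csf1r* locus also holds exons of *Hmgxb3*, whose part in these values was not tested. Only the fourth P1 heart reached the range of the P7 hearts (log2 fold change 0.44, SE 0.194, limma adjusted p = 0.245). *Emr1*, an adhesion receptor used as a macrophage marker, was at 1.47, 1.30, 1.68 and 2.36 FPKM at P1 and at 2.98, 1.77, 2.70 and 2.58 FPKM at P7, with the same P1 heart the highest (log2 fold change 0.38, adjusted p = 0.329). *Cd68*, a lysosomal glycoprotein, was at 1.24 to 2.31 and 2.10 to 3.04 FPKM (log2 fold change 0.44, adjusted p = 0.262). *Fcgr3*, a low-affinity receptor for IgG, was at 1.45 to 4.51 and 2.41 to 4.80 FPKM (adjusted p = 0.445). *Fcgr1*, the high-affinity receptor for IgG, stayed between 0.0898 and 0.427 FPKM in all hearts, from 4 to 17 fragments.

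*Cx3cr1*, the fractalkine receptor, is named on 4 loci of the tables. The locus with the highest mean was at 1.22, 0, 4.36 and 2.34 FPKM at P1 and at 7.77, 1.44, 1.81 and 2.19 FPKM at P7 (log2 fold change 0.57, SE 0.485, adjusted p = 0.503). Its number places it on the strand opposite to the gene. The locus on the strand of the gene was at 1.30, 1.08, 1.20 and 2.07 FPKM at P1 and at 1.84, 1.82, 2.88 and 2.32 FPKM at P7 (log2 fold change 0.42, adjusted p = 0.287), and only the fourth P1 heart lay within the P7 range. *Folr2*, a folate receptor of resident macrophages, has the same difficulty. Its chosen locus gave a log2 fold change of 0.25 and the locus on its own strand 0.40, with adjusted p of 0.557 and 0.274. The locus on its own strand was at 0.764, 0.575, 0.482 and 0.852 FPKM at P1 and at 1.50, 1.01, 1.34 and 0.980 FPKM at P7, without overlap. The count of separated genes does not include it, because that count rests on the chosen locus.

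The scavenger and uptake receptors overlapped between the stages. *Mrc1*, the mannose receptor, was among the most abundant of all 41 genes at 7.51, 8.74, 8.46 and 11.0 FPKM at P1 and 8.27, 5.88, 9.96 and 7.55 FPKM at P7. The P1 and P7 hearts were interleaved (log2 fold change −0.16, SE 0.199, limma adjusted p = 0.627), and GC correction turned the value to 0.07. *Cd163*, the scavenger receptor for haemoglobin bound to haptoglobin, was at 0.800, 0.624, 0.678 and 1.07 FPKM at P1 and at 1.60, 0.488, 0.969 and 0.522 FPKM at P7, where the hearts spread more than at P1 (log2 fold change 0.05, adjusted p = 0.907). Without the first P7 heart its value was −0.12. *Timd4*, a receptor for phosphatidylserine on dying cells, was at 0.152, 0.262, 0.220 and 0 FPKM at P1 and at 0.102, 0.135, 0.455 and 0.111 FPKM at P7, from at most 15 fragments per heart, and no difference was detectable at this depth.

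*Pf4*, a chemokine gene of platelets that resident macrophages also express, was at 24.3, 18.5, 33.2 and 16.2 FPKM at P1 and at 19.0, 14.6, 26.5 and 19.7 FPKM at P7. The hearts of both stages were spread over the same range (log2 fold change −0.18, SE 0.248, limma adjusted p = 0.666), and without the third P1 heart the value was 0.01. The 7 platelet genes summed to 5.36 to 10.3 FPKM at P1 and 8.61 to 11.1 FPKM at P7, so that *Pf4* alone exceeded their sum in every heart. The part of platelets in the level of *Pf4* was not tested. *Trem2*, a lipid receptor that signals through the product of *Tyrobp*, was at 0.387, 0.989, 0.592 and 1.49 FPKM at P1 and at 3.55, 1.43, 1.72 and 0.920 FPKM at P7, and its ratio of means of 2.21 had an adjusted p of 0.269. *Aif1*, an actin-binding protein of macrophages, shares its locus with *Lst1* in the tables, and the joint locus was at 5.02 to 7.02 and 5.67 to 13.4 FPKM (adjusted p = 0.262).

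The 7 genes of monocytes and chemokines had no common direction apart from *Lyz2*. *Ccr2*, the receptor that draws monocytes from the blood, was at 0.687, 0.562, 0.830 and 0.984 FPKM at P1 and at 0.438, 0.655, 0.638 and 0.409 FPKM at P7. The stages overlapped, since the second P1 heart lay below 2 of the P7 hearts, and the gene was not tested in the fit because no heart reached 1 FPKM. With no filter its log2 fold change was −0.20 (SE 0.174, limma adjusted p = 0.512). *Ccl2*, the ligand of this receptor, was at 5.13, 5.62, 6.25 and 3.00 FPKM at P1 and at 1.50, 1.99, 4.41 and 4.73 FPKM at P7. Its log2 fold change of −0.59 (SE 0.293) was among the lowest of the 30 tested genes, and the adjusted p was 0.307. *Ccl6* and *Ccl9*, myeloid CC chemokines, were at 1.10 to 3.34 FPKM and 0.675 to 2.95 FPKM over all 8 hearts, with log2 fold changes of −0.01 and 0.02. *Cd14*, the co-receptor for lipopolysaccharide, was at 0.279 to 0.596 FPKM at P1 and 0.309 to 1.13 FPKM at P7 (log2 fold change 0.21, adjusted p = 0.57).

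In the FPKM as deposited, the neutrophil genes were the only class with a negative median (−0.61 over the 2 tested), and none passed the test. After median-ratio scaling, 0 of 2 neutrophil genes and 1 of 4 monocyte and chemokine genes had a positive log2 fold change. *S100a8* and *S100a9* encode the subunits of calprotectin, which fills the cytosol of neutrophils and is also made by monocytes. *S100a8* was at 15.1, 9.76, 12.1 and 7.62 FPKM at P1 and at 12.2, 2.10, 9.52 and 9.67 FPKM at P7 (log2 fold change −0.52, SE 0.387, limma adjusted p = 0.454). *S100a9* was at 20.2, 16.9, 16.9 and 6.53 FPKM at P1 and at 9.94, 6.29, 14.8 and 4.75 FPKM at P7. 3 of the P1 hearts were above all P7 hearts, and the fourth was within their range (log2 fold change −0.70, SE 0.358, adjusted p = 0.314). *Csf3r*, the receptor for G-CSF, stayed between 0.182 and 0.465 FPKM in all hearts. The second P7 heart was far lower in *S100a8* than the other 7 hearts, and without it the log2 fold changes were −0.05 for *S100a8* and −0.59 for *S100a9* (limma adjusted p = 0.9 and 0.398).

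Lymphocyte genes were near the limit of detection. *Cd3e*, a chain of the T cell receptor complex, was at 0.103, 0.207, 0.217 and 0 FPKM at P1 and at 0.322, 0.342, 0.0481 and 0 FPKM at P7, from at most 8 fragments per heart. *Cd3g*, another chain of this complex, was the only tested gene of the class, at 0.209, 0.478, 2.78 and 0.592 FPKM at P1 and 1.42, 1.14, 1.34 and 0.460 FPKM at P7 (log2 fold change 0.18, adjusted p = 0.745). *Cd4* was at 0.0941 to 0.278 and 0.278 to 0.401 FPKM, without overlap but with the nearest hearts of the stages equal to 3 digits, and *Cd8a* was at 0.0235 to 0.224 and 0.0946 to 0.290 FPKM. These are the co-receptors of helper and cytotoxic T cells.

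The B cell genes among the 41 had higher means at P7, at levels of few fragments, while of the other B cell genes *Pax5* (0.186 and 0.102 FPKM at P1 and P7) and *Vpreb3* (0.379 and 0.306 FPKM) had lower means. *Cd79b*, a signalling chain of the B cell receptor, was at 0.127, 0.128, 0.267 and 0.137 FPKM at P1 and at 0.265, 0.526, 0.478 and 0.705 FPKM at P7, from 3 to 16 fragments per heart. The third P1 heart just exceeded the first P7 heart. *Cd79a*, its partner, was at 0.101, 0.204, 0.214 and 0 FPKM at P1 and at 0.264, 0.462, 0.0946 and 0.259 FPKM at P7. *Ms4a1*, which encodes CD20, was at 0.110 to 0.243 and 0.287 to 0.529 FPKM without overlap, from 4 to 27 fragments. None of them reached 1 FPKM, and with no filter on low values their log2 fold changes were 0.35, 0.17 and 0.27 with adjusted p of 0.29, 0.449 and 0.318. *Cd4* and *Ms4a1*, which were not tested, are not part of the count of separated genes given above.

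**Figure D3:**
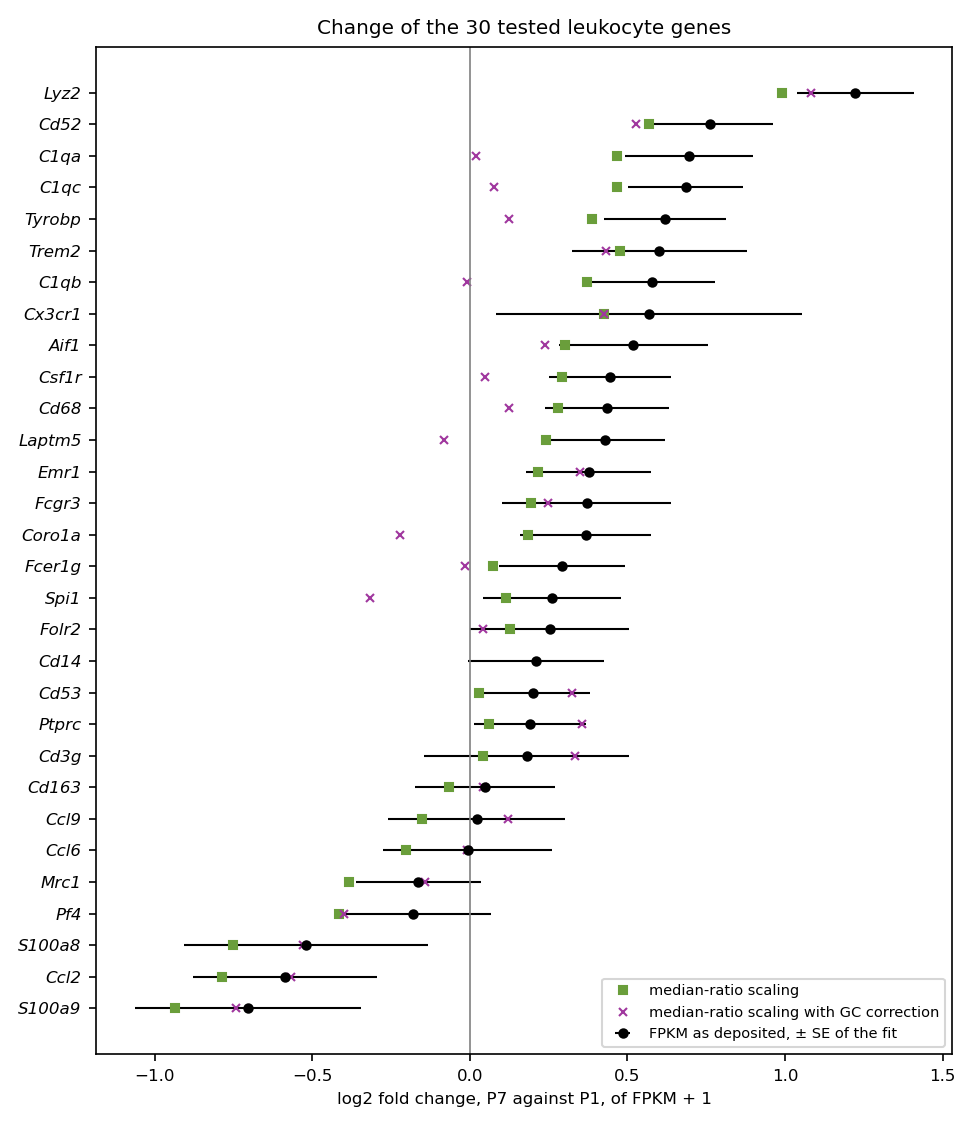
log2 fold change of FPKM + 1, P7 against P1 (horizontal axis), of the 30 tested genes in order of size; black points with bars are the deposited FPKM with the standard error of the fit, squares the values after median-ratio scaling of the hearts, crosses after this scaling and a correction for GC content (*Cd14* passed the filter only unscaled). *Lyz2* stays at 0.99 and 1.08 in both alternatives, whereas *C1qa* goes from 0.70 to 0.47 and 0.02.

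The scaling of the hearts mattered for these values. Median-ratio scaling over loci with a symbol lowered the median of these loci by 0.19, so that the calls over all of them went from 1390 higher and 72 lower to 1385 higher and 620 lower. The median of the leukocyte genes went from 0.33 to 0.18 with it, and 21 of 29 stayed positive. Quantile normalization moved the genes unequally, with *Lyz2* at 0.96 and *C1qa* at 0.43 but *Ptprc* at 0.34 and *Cd163* at 0.18. With scaling and GC correction together the median was 0.05 and 18 of 29 were positive, beside a median of 0.03 over all tested loci with a symbol. *Lyz2* was the only one of the 41 called in each of these settings.

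Ratios of leukocyte genes within a heart do not depend on how hearts are scaled. Of 10 ratios, all chosen with earlier results of these data known, 7 could be tested in all hearts. None passed an exact permutation test of 4 hearts against 4 after Benjamini-Hochberg adjustment over the 7 (two-sided, lowest adjusted p = 0.1, smallest unadjusted p possible 0.0286). The ratio of *Ccr2* to *Csf1r* was 0.468, 0.473, 0.703 and 0.438 in the P1 hearts and 0.158, 0.321, 0.250 and 0.184 in the P7 hearts. It was lower in 4 of 4 P7 hearts, and the difference of the mean log2 ratio was −1.22 (exact permutation p = 0.0286, adjusted p = 0.1). The ratio of *Mrc1* to *Csf1r* was 5.11, 7.35, 7.17 and 4.89 at P1 and 2.99, 2.88, 3.90 and 3.39 at P7. It was also lower in 4 of 4 P7 hearts (difference −0.88, exact permutation p = 0.0286, adjusted p = 0.1). The transcripts of *Ccr2* (39.4% GC), *Mrc1* (43.4%) and *Csf1r* (54.5%) differ in GC content, and after GC correction the differences shrank to −0.54 and −0.27 (exact permutation, adjusted p = 0.25 for both).

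The other ratios overlapped between the stages. *Cd163* to *Csf1r* had a mean of 0.530 ± 0.0417 (SD, n = 4) at P1 and 0.358 ± 0.161 at P7 (exact permutation, adjusted p = 0.2), and its difference of −0.67 on the log2 scale was −0.22 after GC correction. *C1qa* to *Csf1r* averaged 6.52 ± 2.69 and 6.40 ± 1.12, a difference of 0.06 on the log2 scale (exact permutation, adjusted p = 0.914). *Csf1r* to *Ptprc* averaged 1.65 ± 0.470 and 2.01 ± 0.0534, with P7 hearts nearly equal to each other. *S100a8* to *Ptprc* went from 12.6 ± 5.47 to 6.78 ± 3.22 and *Cd79b* to *Ptprc* from 0.178 ± 0.0617 to 0.433 ± 0.200 (exact permutation, adjusted p = 0.15 and 0.133). The difference of 1.20 in the latter on the log2 scale was 0.55 after GC correction (exact permutation, adjusted p = 0.44). *Lyz2* to *Csf1r*, a ratio added after the values were seen and therefore not tested, was 6.95 to 11.0 at P1 and 12.9 to 15.5 at P7. *Lyz2* to *Ptprc*, added in the same way, was 12.0 to 18.4 and 26.2 to 30.1. The ratios of *Lyz2* to *Tyrobp* (1.14 to 1.99 and 1.63 to 2.36) and to *C1qa* (1.03 to 2.02 and 2.00 to 2.38), of the same kind, overlapped between the stages.

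**Figure D4:**
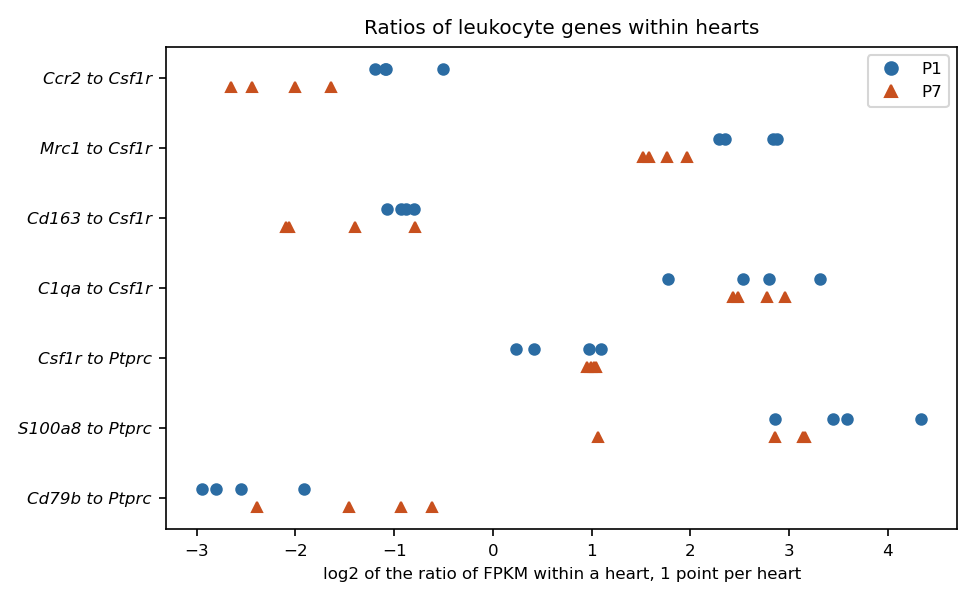
log2 of the ratio of FPKM of a pair of genes within each heart (horizontal axis) for the 7 ratios with no 0 in any heart; circles are P1 hearts, triangles P7 hearts. *Ccr2* to *Csf1r* and *Mrc1* to *Csf1r* have no P7 heart inside the P1 range, and the other 5 ratios overlap.

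Some other genes of leukocytes passed the test. Of 7 tested leukocyte growth factors and their receptors, *Csf2ra*, a chain of the GM-CSF receptor, rose, at 2.20 to 3.42 FPKM at P1 and 5.01 to 5.43 FPKM at P7 (log2 fold change 0.75, limma adjusted p = 0.0365). Of 9 other chemokines and receptors, *Cxcr4*, the receptor for CXCL12, was at 1.64 to 2.10 and 3.64 to 8.26 FPKM (log2 fold change 1.10, adjusted p = 0.0225), and *Ccl21a*, a chemokine of lymphatic endothelium and lymph nodes, was at 1.25 to 4.78 and 8.12 to 14.9 FPKM (log2 fold change 1.57, adjusted p = 0.0178). *Ccl21a* is named on more than 1 locus and has near-identical copies, so that its level is uncertain. *Retnlg*, a resistin-like gene of neutrophils, was at 1.78, 2.66, 2.47 and 1.17 FPKM at P1 and at 0.466, 0.121, 0.562 and 0 FPKM at P7. It passed as lower (log2 fold change −1.22, limma adjusted p = 0.0188), but met the filter of 1 FPKM through its P1 hearts alone. It was the only call among the 3 tested neutrophil granule genes. The 12 genes of that list summed to 2.94 to 9.05 FPKM at P1 and to 1.90 to 5.10 FPKM at P7, with overlap between the stages.

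No gene passed the test in the lists of other monocyte genes (3 tested), dendritic cell genes (3), mast cell genes (5), T and NK cell genes (2) or B cell genes (2). Their extremes were *Plac8* (log2 fold change −0.38) and *F13a1* (−0.20) among monocyte genes, and *Cpa3* (−0.51) and *Mcpt4* (0.55) among mast cell genes. Among dendritic cell genes they were *Clec9a* (−0.25), at a locus it shares with *Clec1b*, and *Zbtb46* (0.38). For T and NK cells they were *Cd247* (0.26, a locus shared with *Gm16565*) and *Lck* (0.36), and for B cells *Blk* (0.22) and *Fcer2a* (0.66). Adjusted p for these 10 genes lay between 0.196 and 0.603.

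Some genes of other cells of the heart were also higher at P7. Of 6 fibroblast genes, 4 passed the test as higher at P7 (*Col1a1*, *Dcn*, *Lum* and *Tcf21*, log2 fold changes 0.94 to 1.23), and the 6 summed to 450 to 812 FPKM at P1 and 1048 to 1301 FPKM at P7. Of 5 endothelial genes, *Cdh5* and *Tie1* passed as higher (0.96 and 1.20), with sums of 63.6 to 120.8 and 107 to 162 FPKM. Of 7 red cell genes, none passed (*Hbb-b1* had the largest log2 fold change, 0.89), and the sums were 1637 to 3852 and 3745 to 5026 FPKM. Of 4 tested platelet genes, *Gp1bb* passed as higher (0.84), at a locus it shares with *Sept5*. *Itga2b* (0.52) and *Gp1ba* (0.25) also had positive log2 fold changes but did not pass (limma adjusted p = 0.212 and 0.572). *Ppbp*, a chemokine gene of platelets, was separated in the opposite order (1.22 to 6.02 and 0.178 to 0.939 FPKM, log2 fold change −1.03, limma adjusted p = 0.114), and *Gp9* and *Treml1*, which were not tested, also had lower means at P7. Of 7 cardiomyocyte genes, none passed, and *Actc1* (−0.26) and *Tnni3* (0.87, a locus shared with *Dnaaf3*) were the extremes. Of the 32 markers, none was at 0 in all hearts of a stage, the platelet genes *Gp9*, *Gp6* and *Treml1* were at 0 in some hearts, and the part of these cells in the values of the leukocyte genes was not tested.

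Promoter windows of 250 bases were given by RefSeq for 30 of the 41 genes. GAGGAA, on either strand, occurred in 17 of the 30 (56.7%) and in 25.9% of the 27025 genes with a window. Its longer form GAGGAAGT, which contains it, occurred in 3 of the 30 (*C1qc*, *Pf4* and *S100a8*), and in 2.79% of all. TTNNGNAA occurred in 15 of the 30 (50.0%) and in 40.3% of all. *Lyz2*, the gene that rose, holds the last of these motifs and not the first, and the genes with GAGGAA include both *S100a8*, lower in mean at P7, and *C1qb* and *C1qc*, higher in mean. The windows rest on RefSeq starts, which can lie inside the gene as GENCODE M21 draws it, as for *Lyz2*. A match describes these letters in this window and no more.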

How the data were processed

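The authors made RNA from 8 hearts with TRIzol, removed ribosomal RNA, prepared libraries with the ScriptSeq v2 kit and sequenced them in pairs on an Illumina instrument. A service provider mapped the reads to GRCm38 with Ensembl release 70. The aligner is not given in the sources used here. The deposited values are FPKM per locus, 1 table per heart, normalized by the authors for length and depth. Counts are not used here, and fragments were estimated from the steps between low FPKM in loci of 1500 to 6000 bases, where 96.5% to 99.5% of values lay within 0.25 of a whole fragment. Such numbers cover counting error only.

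The 41 genes and all lists and ratios were chosen with earlier results of these data known. Genes were matched by symbol (40) or older symbol (*Spi1*, as *Sfpi1*), and of several loci the one with the highest mean was taken. Locus strand was inferred from locus numbers, which was right for 99.71% of 26352 loci of known strand. The spans of the loci of *Csf1r*, *Cd52*, *Cx3cr1*, *Coro1a*, *Ccl2* and *Ms4a1* also hold exons of other coding genes, on either strand. The part of those genes in the values and ratios was not tested. Loci that reached 1 FPKM in any heart (43172, of which 17960 carry a symbol) were compared on log2(FPKM + 1) with limma 3.58.1 (R 4.3.3; lmFit, then eBayes with a trend), all 8 hearts, no covariate, and Benjamini-Hochberg adjustment over all of them. A fold change on this scale understates the change of low genes. Loci were called when the adjusted p was below 0.05 and the mean FPKM of the stages differed at least 1.5 times. The scripts were tested on simulated data. Ratios within hearts were compared with a two-sided exact permutation test in Python 3.11.15. Per-heart values were given for called genes, for a set list of defining genes, and for the 3 largest and 3 smallest log2 fold changes, and of other lists for called genes or the extremes.

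Replicate numbers come from the labels. Deviations of hearts with the same number correlated at −0.02, 0.12, −0.10 and −0.03, so the numbers do not pair the hearts. Each P7 or P1 value is 1 mouse. *Irf8*, on the list of other macrophage genes, was not analysed here. Results of some other genes on these lists are not reported here. Alternatives were another pseudocount, other filters, median-ratio and quantile scaling, a GC correction (lowess, span 0.3), sample weights, no trend, a replicate block and each heart left out. The GC correction of the ratios, the GC correction with scaling, and the choice of locus by strand were added after seeing the data.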

Additional observations from a re-analysis of the deposited data

Results flagged for a closer look

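In a group of 4 hearts, a heart was taken as apart when the gap to its nearest neighbour, divided by the range of all 4, exceeded the 95% critical value of Dixon's test. Of 82 groups (41 genes, 2 stages), 4 had such a heart, and chance flags about 1 in 20 groups. *Cx3cr1* in the first P7 heart was at 7.77 FPKM, where the other 3 were at 1.44 to 2.19, at the locus on the opposite strand. At the locus on its own strand that heart was at 1.84 FPKM, within the range of the others. *Timd4* in the third P7 heart was at 0.455 FPKM, with the others at 0.102 to 0.135, from at most 15 fragments. *Cd3g* in the third P1 heart was at 2.78 FPKM, with the others at 0.209 to 0.592. *Cd79b* in the same heart was at 0.267 FPKM, with the others at 0.127 to 0.137. The last 2 are T and B cell genes of 1 heart, which also had the most loci at 1 FPKM or more (28662, the other hearts 20269 to 22292), and the part of that in these values was not tested.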

How the results depend on the processing

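The count of 1 leukocyte gene higher at P7 was 5 when only loci with at least 1 FPKM in every heart were tested and 5 with sample weights, in both cases *Lyz2*, *Cd52*, *Tyrobp*, *C1qa* and *C1qc*. The share of all tested loci with a symbol called higher also rose, from 7.74% to 19% with that filter and 15.4% with weights. Leaving out 1 heart gave 1 to 2, the 2 being *Lyz2* and *Cd52* without the first P1 heart. The count of lower genes was 0 throughout. The replicate block gave 1 higher and 0 lower, *Lyz2* again, and 1 of 4 P1 hearts correlated best with the P7 heart of its number. Over all loci with a symbol, 1390 higher and 72 lower became 2773 and 178 with weights, 2424 and 149 with the filter on every heart, 351 and 24 with GC correction, 591 and 29 with no filter, 905 and 36 without trend, and 156 to 2720 higher with 1 heart left out.

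Of 533 recomputed log2 fold changes, 25 of 11 genes turned sign, none of them called in either. GC correction turned *Coro1a* (−0.027), *Spi1* (−0.16), *Mrc1* (0.071) and *Ccl6* (0.18). With scaling as well they were *Laptm5* (−0.083), *Coro1a* (−0.22), *Spi1* (−0.32), *Fcer1g* (−0.014) and *C1qb* (−0.0099). Median-ratio scaling turned *Cd163* (−0.066) and *Ccl9* (−0.15), quantile scaling *Ccl9* (−0.082), weights *Ccl9* (−0.055), and the pseudocount of 0.1 *Ccl6* (0.0030). Quantile scaling moved the median of loci with a symbol by −0.11. Leaving out 1 heart gave −0.21 to 0.17 for *Ccl6*, −0.18 to 0.24 for *Ccl9*, −0.12 to 0.15 for *Cd163*, −0.32 to 0.0056 for *Pf4* and −0.014 to 0.53 for *Cd3g*. The log2 ratio of *C1qa* to *Csf1r* (0.06) was −0.20 with GC correction and −0.22 to 0.29 with 1 heart left out, and that of *Csf1r* to *Ptprc* (0.33) was −0.35 with GC correction. The cause of these changes was not tested. With 3 hearts against 4, or with sign flips within replicate numbers, no ratio can go below p = 0.0571 or p = 0.125 (exact permutation tests). *Cx3cr1*, *Timd4* and *Cd3e* ratios have a 0 in a heart and were not tested under any setting.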
